A study of Mus musculus with 12 samples.

Results

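The 5p arms of the miR-181 family, mmu-miR-181a-5p, mmu-miR-181b-5p, mmu-miR-181c-5p, and mmu-miR-181d-5p (mmu, for mouse, is dropped below), were followed in exosomes captured from mouse brain after sham handling or repetitive mild traumatic brain injury (rmTBI). The family was picked with earlier results of these data known. Its members were then taken by name, and are 4 of the 1881 miRNAs named on the arrays. All 4 were detected on all 12 arrays, and 0 of 4 passed limma's test against sham, adjusted over all tested miRNAs, at any time point after injury.

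A microRNA guides the Argonaute silencing complex to messenger RNAs that pair with its seed, the bases near its 5′ end, and members of a family share that seed. The 5p and 3p arms are the strands cut from either side of 1 hairpin, and usually 1 of them is kept. miR-181 miRNAs are known from lymphocyte development, where miR-181a tunes the sensitivity of T cell receptor signaling. In the brain they are found in neurons and glia and have been studied in cell survival after ischemia and in inflammatory signaling of astrocytes and microglia.

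The mice were adult male C57BL/6. Injured mice received 4 closed-head impacts, 48 h apart, without opening the scalp, and sham mice went through everything but the impact. Exosomes from the dissociated brain were captured with an antibody to CD11b, a surface protein of microglia and other myeloid cells. The groups were sham, 3 days post-injury (DPI), 14 DPI, and 42 DPI, with 3 arrays each. The labels name the injured hemisphere as the starting tissue, whereas the methods name the cortex and hippocampus of both sides. Neither source says whether a sample pooled several animals, so the p-values measure only the spread between these samples, which may be technical.

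The mature sequences, taken from RefSeq (GRCm38.p6), are shown because the members differ only behind the seed. Capitals mark bases 2 to 8, the seed.
miR-181a-5p: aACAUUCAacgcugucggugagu
miR-181b-5p: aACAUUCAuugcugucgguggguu
miR-181c-5p: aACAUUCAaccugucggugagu
miR-181d-5p: aACAUUCAuuguugucggugggu
No other name among the 1679 mature mouse miRNAs in the RefSeq table carries this seed. Behind it the family falls into 2 pairs. miR-181a-5p and miR-181c-5p are 1 edit apart (a base changed, added, or removed) and share their last 12 bases. miR-181b-5p and miR-181d-5p are 2 edits apart. Across the pairs the distance was 4 or 5 edits.

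The 4 members come from 6 hairpins in 3 clusters. Mir181a-1 and Mir181b-1 lie 97 bases apart on chromosome 1 (chr1:137966455-137966718, plus strand), where no other annotated gene spans the mature arms. Mir181a-2 and Mir181b-2 lie 1019 bases apart on chromosome 2 (chr2:38852735-38853918, plus strand), inside the spans of the nuclear receptor gene Nr6a1 and the long noncoding RNA Nr6a1os. Mir181c and Mir181d lie 85 bases apart on chromosome 8 (chr8:84178716-84178961, minus strand), again with no other gene over the mature arms. The mature miR-181a-5p is identical from both of its hairpins, as is miR-181b-5p, so the arrays cannot tell their loci apart. The members that are closest in sequence therefore do not sit in the same cluster.

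The arrays differed in brightness along with the groups. The 75th percentile of intensity used for scaling ranged from 217 to 348 on sham arrays and from 401 to 619 on the 3 DPI arrays. It reached 588 to 1173 on the 14 DPI arrays and 1385 to 2936 on the 42 DPI arrays. Between 243 and 285 miRNAs were detected on a sham array and between 490 and 579 on a 42 DPI array. A slide holds several arrays: slide 1 held the 3 sham arrays and replicate 1 of 3 DPI, and slide 2 held the other 8. Slide and injury therefore cannot be told apart for 14 and 42 DPI. In the deposited scanner files, 30 spots of miR-124-3p on each injury array had positions on the grid of another array. How this came about was not tested. All 120 spots of the miR-181 members on each array lay on that array's own grid. None of the 1440 member spots was saturated, and 29 were left out as outliers. The median coefficient of variation among the spots of a member's probe was 10.8% on sham arrays and 4.18% at 42 DPI.

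Signals of miRNAs that mark myeloid cells were low in these CD11b-captured exosomes. Of 5 such markers, 0 were detected on all sham arrays and 3 on all 42 DPI arrays, and the summed level ranged from 0.128 to 0.168 of the array's 75th percentile in sham and from 0.1499 to 0.1912 at 42 DPI. miR-142a-5p was detected on 0 of 12 arrays, whereas miR-223-3p was detected on 1 sham array and on all 3 arrays of each injury group. In the order sham, 3, 14, and 42 DPI, miR-146a-5p was detected on 0, 1, 2, and 3 arrays. In that order the counts were 0, 0, 2, and 3 for miR-142a-3p and 0, 0, 0, and 1 for miR-155-5p. The 8 neuron-enriched miRNAs that could be read were detected on every array, with a summed level of 18.4 to 24.9 times the 75th percentile in sham. The range was 18.6 to 24.6 on the 3 DPI arrays, 19.1 to 37.0 on those of 14 DPI, and 33.4 to 37.6 on those of 42 DPI. The oligodendrocyte list of 4 went from between 1.81 and 2.51 in sham to between 4.15 and 4.46 at 42 DPI. Of the endothelial pair, miR-126a-3p was detected on every array, and the sum was 1.01 to 1.41 in sham and 1.38 to 1.62 at 42 DPI. Of the 4 erythrocyte markers on the array, 0 were detected in sham, where the sum of their undetected signals was 0.0869 to 0.129. At 42 DPI the sum was 0.0443 to 0.0829. There miR-486a-5p was detected on 3 arrays, miR-451a on 2, and miR-144-3p and miR-144-5p on 0. The part of any of these in the values below was not tested. In such bulk samples, fewer vesicles from a cell type and less miRNA per vesicle cannot be told apart.

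**Figure D1:**
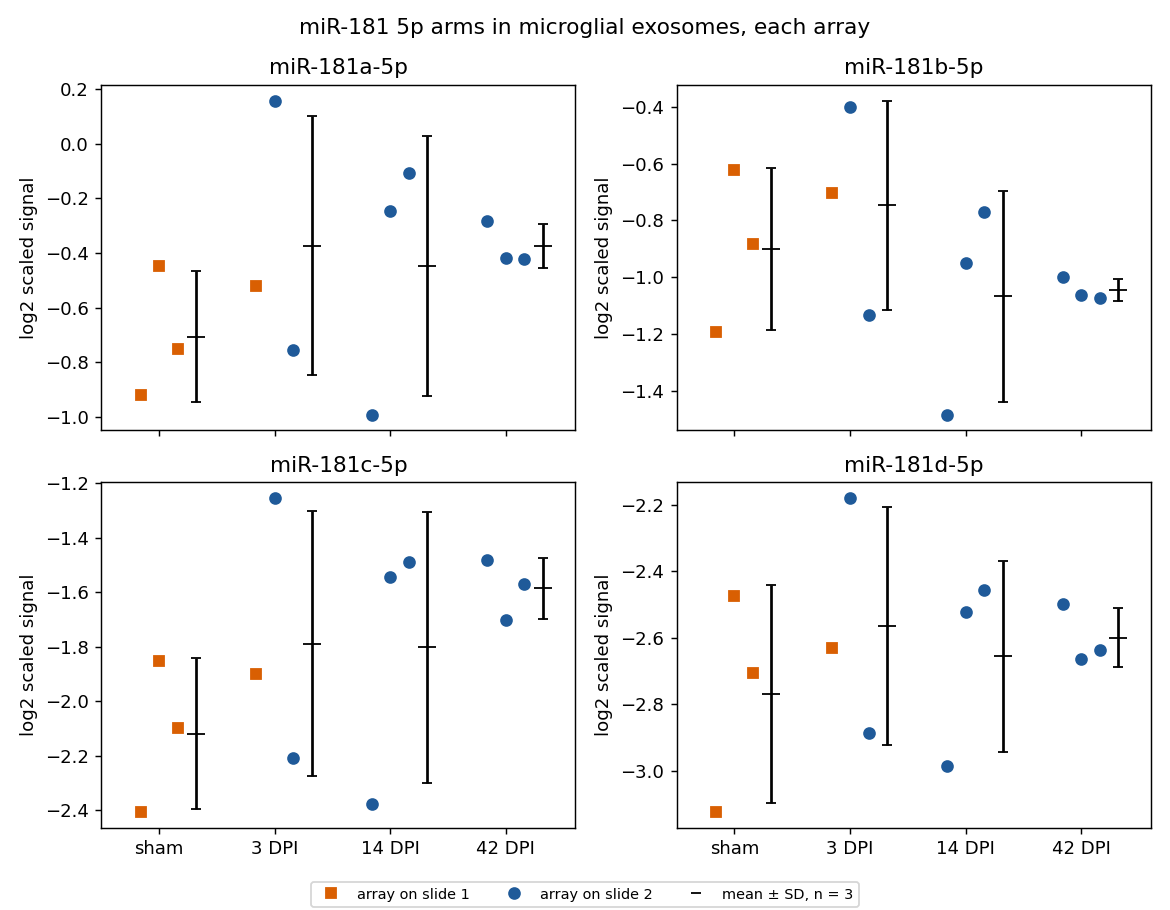
Log2 scaled signal (vertical axes, each with its own range) of the 4 miR-181 5p arms on each of 12 arrays, by group (horizontal axes). Squares are arrays on slide 1 and circles are arrays on slide 2; bars give the mean and SD of 3 arrays. In each panel the 3 and 14 DPI arrays overlap the sham arrays, and the 42 DPI arrays lie closest together.

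Levels are given as log2 scaled signals, where 0 is the array's 75th percentile and 1 unit is a doubling. miR-181a-5p, the member best known from T cells, stood at -0.92, -0.45, and -0.75 on the 3 sham arrays, at -0.52, 0.16, and -0.75 at 3 DPI, at -0.99, -0.25, and -0.11 at 14 DPI, and at -0.28, -0.42, and -0.42 at 42 DPI. The mean was -0.71 ± 0.24 (SD, n = 3) in sham and -0.37 ± 0.08 (n = 3) at 42 DPI. The 42 DPI arrays all lay above the sham arrays, by a margin smaller than the spread within sham, and the other 2 injury groups overlapped sham. On the log2 scale the 3, 14, and 42 DPI groups differed from sham by 0.33, 0.26, and 0.33, each ± 0.28 (SE; limma, adjusted p = 1, 0.665, and 0.384). With the slide as a block they were 0.18, 0.03, and 0.11. The 3 DPI difference was 0.07 without 3 DPI replicate 2 and 0.52 without replicate 3, and that of 14 DPI was 0.09 without 14 DPI replicate 3 and 0.53 without replicate 1.

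miR-181b-5p, which is cut from the same 2 clusters as miR-181a-5p, stood at -1.19, -0.62, and -0.88 in sham. It stood at -0.70, -0.40, and -1.14 at 3 DPI, at -1.48, -0.95, and -0.77 at 14 DPI, and at -1.0, -1.06, and -1.07 at 42 DPI. The mean was -0.90 ± 0.29 (SD, n = 3) in sham and -1.05 ± 0.04 (n = 3) at 42 DPI. All 3 injury groups overlapped sham. It was the member with negative differences from sham, at -0.17 ± 0.24 (SE) for 14 DPI and -0.15 ± 0.24 for 42 DPI, after 0.15 ± 0.24 for 3 DPI (limma, adjusted p = 0.770, 0.676, and 1). Both negative signs turned positive with the scanner software's total gene signal, with 2 other scalings, and with no scaling.

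miR-181c-5p, the near copy of miR-181a-5p from chromosome 8, stood at -2.41, -1.85, and -2.10 in sham. It stood at -1.90, -1.26, and -2.21 at 3 DPI, at -2.38, -1.55, and -1.49 at 14 DPI, and at -1.48, -1.70, and -1.57 at 42 DPI. The mean was -2.12 ± 0.28 (SD, n = 3) in sham and -1.59 ± 0.11 (n = 3) at 42 DPI. As for miR-181a-5p, the 42 DPI arrays all lay above sham. It had the largest difference of the 24 computed for the family, 0.53 ± 0.30 (SE) at 42 DPI, or 1.45-fold with a 95% confidence interval from 0.907- to 2.31-fold (limma, adjusted p = 0.185). With the fit limited to the arrays of these 2 groups, the same difference passed the threshold (limma, adjusted p = 0.0455), and the share of all tested miRNAs called there was 53.9%. With the slide as a block it was 0.36 ± 0.56 (limma, adjusted p = 0.675). It turned to -0.26 when background was modeled by normexp with an offset of 50, a setting that shifted the median of all tested miRNAs to -1.67.

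miR-181d-5p, the other chromosome 8 member, stood at -3.13, -2.48, and -2.71 in sham. It stood at -2.63, -2.18, and -2.89 at 3 DPI, at -2.99, -2.52, and -2.46 at 14 DPI, and at -2.50, -2.66, and -2.64 at 42 DPI. The mean was -2.77 ± 0.33 (SD, n = 3) in sham and -2.60 ± 0.09 (n = 3) at 42 DPI, and every injury group overlapped sham. Its differences from sham in the same order of time points were 0.20, 0.11, and 0.17, each ± 0.23 (SE; limma, adjusted p = 1, 0.865, and 0.601). Without sham replicate 1 the last 2 became -0.0642 and -0.0085. Under normexp they were -0.60 and -0.86, and both passed the threshold (limma, adjusted p = 0.00482 and 2.0e-04), as did 76.1% and 88.3% of all tested miRNAs.

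**Figure D2:**
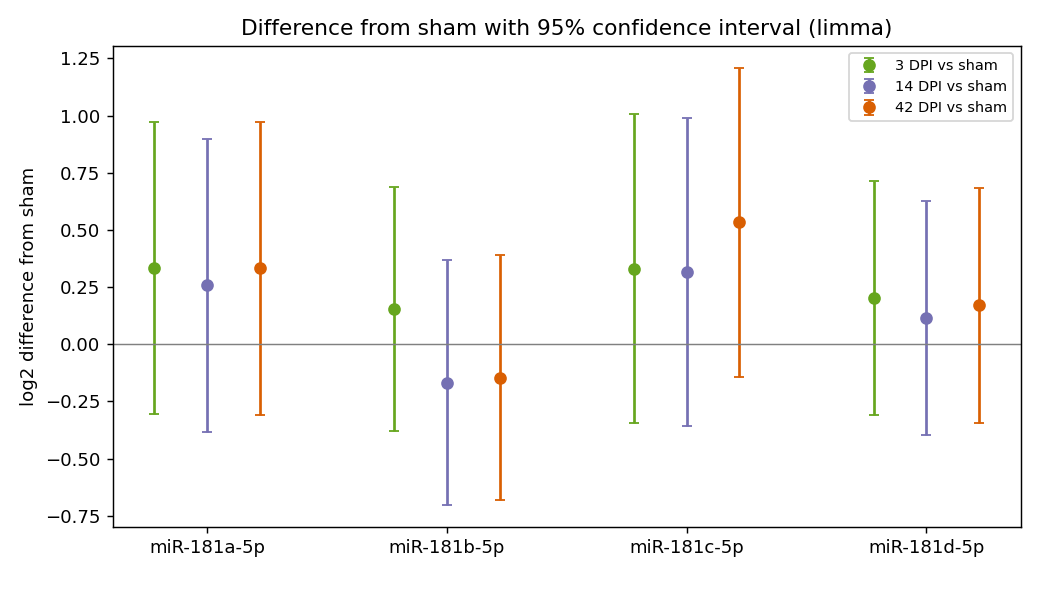
Log2 difference from sham (vertical axis) of each miR-181 5p arm at 3, 14, and 42 DPI, with its 95% confidence interval from limma over 12 arrays. All 12 intervals include 0, and the highest point is miR-181c-5p at 42 DPI (0.53).

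Over the family, 4 of 4 members had a positive difference on the 3 DPI arrays and 3 of 4 at both later time points, with medians of 0.27, 0.19, and 0.25 on the log2 scale. The median over all 486 tested miRNAs was 0 at the first 2 time points and -0.09 at the last. Under normexp 2, 1, and 1 of 4 were positive, and with no scaling, which moved the median of all tested miRNAs to 1.90 at 42 DPI, 4 of 4 were. At an adjusted p under 0.05, limma called 0 of 4 members at each time point, against 0%, 3.70%, and 34.2% of all tested miRNAs. Among the 230 miRNAs detected on all 12 arrays, as the members were, the shares were 0%, 2.61%, and 40%. The shares of all tested miRNAs moved with single arrays. That at 14 DPI was 33.3% without 14 DPI replicate 1 and 0.206% without sham replicate 2, and that at 42 DPI was 51.2% without 14 DPI replicate 1 and 9.47% without 42 DPI replicate 1. The count of members stayed 0 of 4 without each array in turn. In the fit over all 12 arrays, limma counted 0 of 4 members at an unadjusted p under 0.05 at each time point. Over the 486 tested miRNAs it counted 11, 106, and 231. Over the 24 differences of the family, the lowest end of a 95% interval was 0.553-fold, for miR-181b-5p between 14 and 3 DPI. The highest end was 2.31-fold, for miR-181c-5p between 42 DPI and sham. Each single interval was narrower, such as 0.624- to 1.31-fold for miR-181b-5p between 42 DPI and sham. Changes inside the interval of a difference cannot be told from none with 3 arrays a group. No member was free of overlap with sham at 3 DPI (2.06% of tested miRNAs) or 14 DPI (14.4%). miR-181a-5p and miR-181c-5p were the 2 of 4 members that did not overlap sham at 42 DPI, where 66.9% of tested miRNAs did not overlap in either direction and 31.3% were higher without overlap.

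Between time points, too, limma called 0 of 4 members, at an adjusted or an unadjusted p under 0.05. All 4 were lower at 14 than at 3 DPI, with differences of -0.32 to -0.01 on the log2 scale in the limma fit. Of the 486 tested miRNAs, 251 were lower and 0.617% were called. Between 42 and 3 DPI the differences ran from -0.30 for miR-181b-5p to 0.20 for miR-181c-5p, against 38.3% of tested miRNAs and 46.1% of those detected on all arrays. The first share was 0% without 42 DPI replicate 1 or replicate 3, 7.82% without 3 DPI replicate 3, and 52.5% without 14 DPI replicate 1. Between 42 and 14 DPI they ran from 0.02 to 0.22, against 0% called. Within slide 2 alone, where these time points can be compared free of the slide, the differences of the members ran from -0.30 to 0.22, and limma again called 0 of 4, and 0 of all tested miRNAs. Within slide 1, the single 3 DPI array stood above the sham mean by 0.14 for miR-181d-5p to 0.22 for miR-181c-5p, with no test.

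Within a group the members mostly kept the same order of arrays, which is set here beside the share of the 230 miRNAs detected on all arrays with the same array at that end. Sham replicate 2 was the highest sham array for 4 of 4 members (31.7%), and sham replicate 1 was the lowest for all 4 (56.5%). At 3 DPI, replicate 2 was highest for all 4 (33.0%) and replicate 3 lowest for all 4 (47.0%). At 14 DPI, replicate 3 was highest for all 4 (48.7%) and replicate 1 lowest for all 4 (59.1%). At 42 DPI, replicate 1 was highest for all 4 (39.6%), whereas the lowest array was replicate 2 for 2 members and replicate 3 for the other 2. Across the 12 arrays, which share slides and scaling, Pearson's r was 0.97 between miR-181a-5p and miR-181c-5p and 0.84 between miR-181b-5p and miR-181d-5p. Across these sequence pairs it was 0.94 for miR-181a-5p with miR-181d-5p and 0.92 for miR-181c-5p with miR-181d-5p. It was 0.75 for miR-181a-5p with miR-181b-5p and lowest, 0.64, for miR-181b-5p with miR-181c-5p. These correlations are given as a description.

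Each member was read by 2 probes of 15 spots each, and the probes of a member gave differences of the same sign at 42 DPI. For miR-181a-5p they gave 0.36 and 0.32 on the log2 scale, for miR-181b-5p -0.09 and -0.17, for miR-181c-5p 0.48 and 0.64, and for miR-181d-5p 0.09 and 0.21. Of the 8 probes, limma called 0 in each comparison with sham among the 870 probes tested. The dimmer miR-181d-5p probe was detected on 1 of 3 sham arrays and on all 9 injury arrays. The probes' own sequences were not used here, so cross-reading between members this alike was not tested.

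Differences between 2 members of the same array do not depend on the factor by which that array was scaled. The log2 signal of miR-181a-5p minus that of miR-181b-5p was 0.27, 0.17, and 0.13 on the sham arrays, then 0.18, 0.56, and 0.38 on those of 3 DPI, 0.49, 0.70, and 0.66 on those of 14 DPI, and 0.72, 0.64, and 0.65 on those of 42 DPI. The mean went from 0.19 ± 0.07 (SD, n = 3) in sham to 0.67 ± 0.04 (n = 3) at 42 DPI, a change of 0.48 ± 0.05 (SE). Every 14 and 42 DPI array lay above every sham array. The signals of different probes are not comparable as amounts, and these values show only that the signals of the 2 members differed from sham unequally. miR-181a-5p and miR-181b-5p come from the same 2 clusters.

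miR-181b-5p minus miR-181c-5p had the largest change of the 6 pairs under the reported processing and 5 other ways of making the signal, and the smallest, -0.09, under normexp. Its values were 1.21, 1.23, and 1.21 on the sham arrays, 1.20, 0.85, and 1.07 on the 3 DPI arrays, 0.89, 0.60, and 0.72 on those of 14 DPI, and 0.48, 0.64, and 0.50 on those of 42 DPI. The mean changed by -0.68 ± 0.05 (SE) between sham and 42 DPI. The injury arrays of all 3 time points lay below all sham arrays, although the 3 DPI array on slide 1 lay only just below them.

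**Figure D3:**
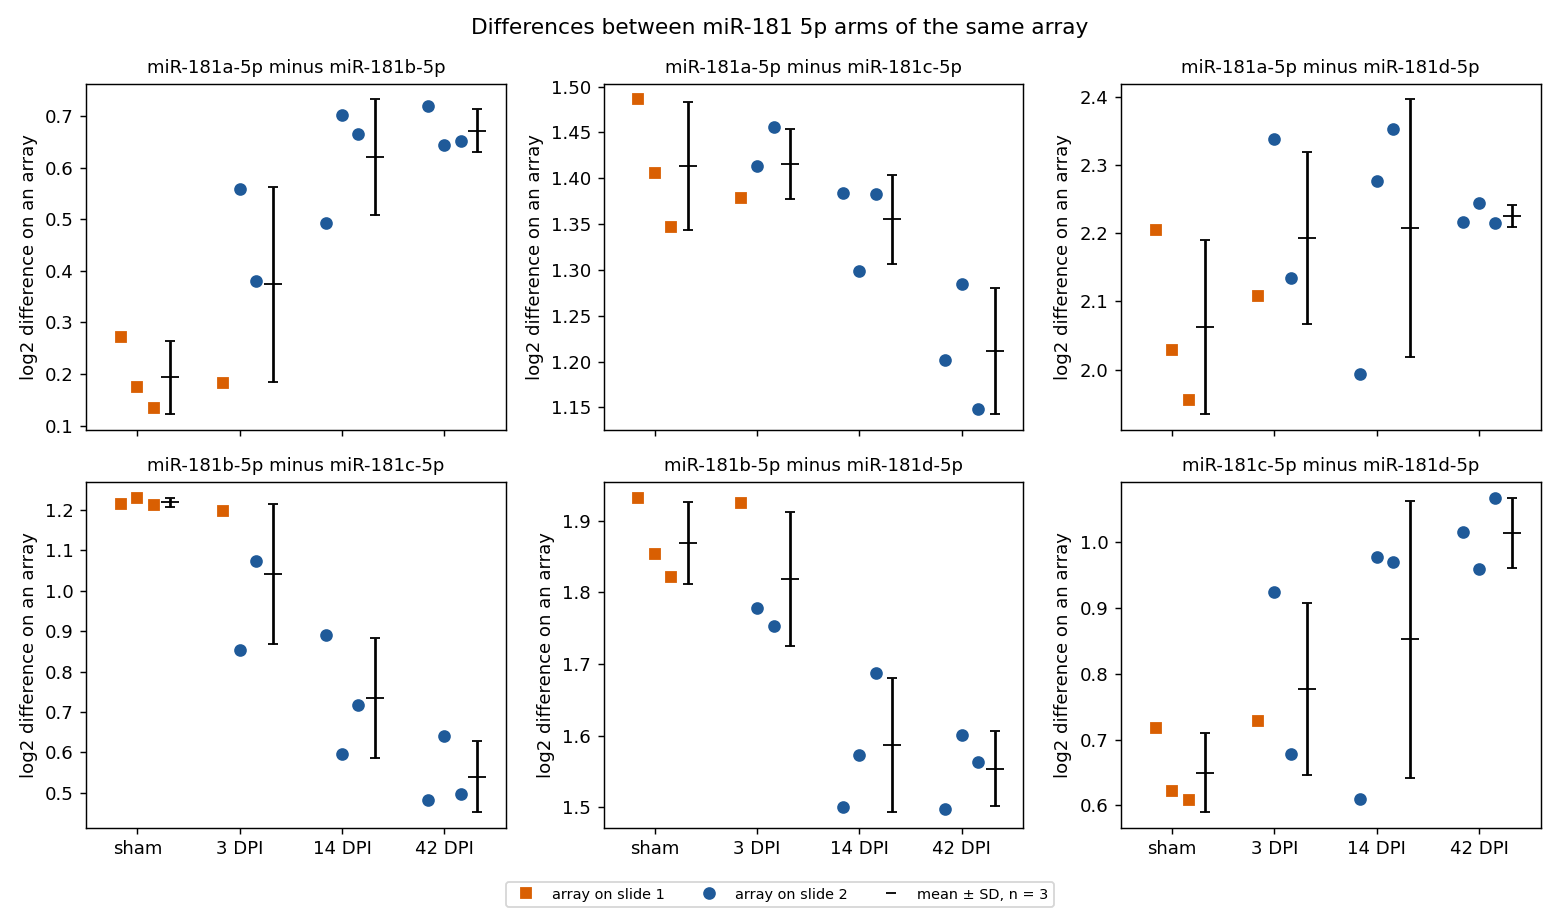
Log2 difference between 2 miR-181 5p arms of the same array (vertical axes, each with its own range) for the 6 pairs, by group (horizontal axes). Squares are arrays on slide 1, circles arrays on slide 2, and bars the mean and SD of 3 arrays. Under the reported processing the 42 DPI arrays are in all 6 panels separate from the sham arrays, and in the miR-181b-5p minus miR-181c-5p panel the 3 DPI array on slide 1 lies next to sham.

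The other 4 pairs moved less under the reported processing. The changes between sham and 42 DPI were -0.20 ± 0.06 (SE) for miR-181a-5p minus miR-181c-5p, 0.16 ± 0.07 for miR-181a-5p minus miR-181d-5p, -0.31 ± 0.04 for miR-181b-5p minus miR-181d-5p, and 0.36 ± 0.05 for miR-181c-5p minus miR-181d-5p. The miR-181a-5p minus miR-181c-5p and miR-181b-5p minus miR-181d-5p changes turned in sign under normexp, and the miR-181a-5p minus miR-181d-5p change in the deposited table and under quantile normalization. Normexp also gave miR-181a-5p minus miR-181d-5p the largest change of the 6 pairs, 1.01, and miR-181c-5p minus miR-181d-5p a change of 0.60. Under quantile normalization and in the deposited table, miR-181a-5p minus miR-181c-5p changed by -0.58 and -0.47 and miR-181b-5p minus miR-181d-5p by -0.73 in both. miR-181a-5p minus miR-181d-5p overlapped sham under these 2 settings and with the brightest probe alone. The 3, 14, and 42 DPI arrays were free of overlap with sham for 1, 3, and 6 of the 6 pairs. Among all 26335 pairs of the 230 miRNAs detected on all arrays, the shares were 6.54%, 27.3%, and 80.1%. Unequal change between the signals of 2 miRNAs of an array was thus common in these samples. With 3 arrays a group, an exact permutation test cannot go below p = 0.1, and no p is given for the pairs.

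Slide and brightness moved with these differences. The miR-181a-5p minus miR-181b-5p values ranged from 0.13 to 0.27 on the 4 arrays of slide 1 and from 0.38 to 0.72 on the 8 arrays of slide 2. The miR-181b-5p minus miR-181c-5p values ranged from 1.20 to 1.23 on slide 1 and from 0.48 to 1.07 on slide 2. Within slide 2, the 42 DPI arrays lay above both 3 DPI arrays for the first pair and below them for the second. No share over all pairs was computed for these few arrays. Their 75th percentiles were 451 and 619 at 3 DPI and 1385 to 2936 at 42 DPI. The part of brightness was not tested. The miR-181a-5p minus miR-181b-5p change stayed between 0.44 and 0.52, without overlap, under the 6 other ways of making the signal that were tried. The miR-181b-5p minus miR-181c-5p change fell to -0.09, with overlap, under normexp.

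**Figure D4:**
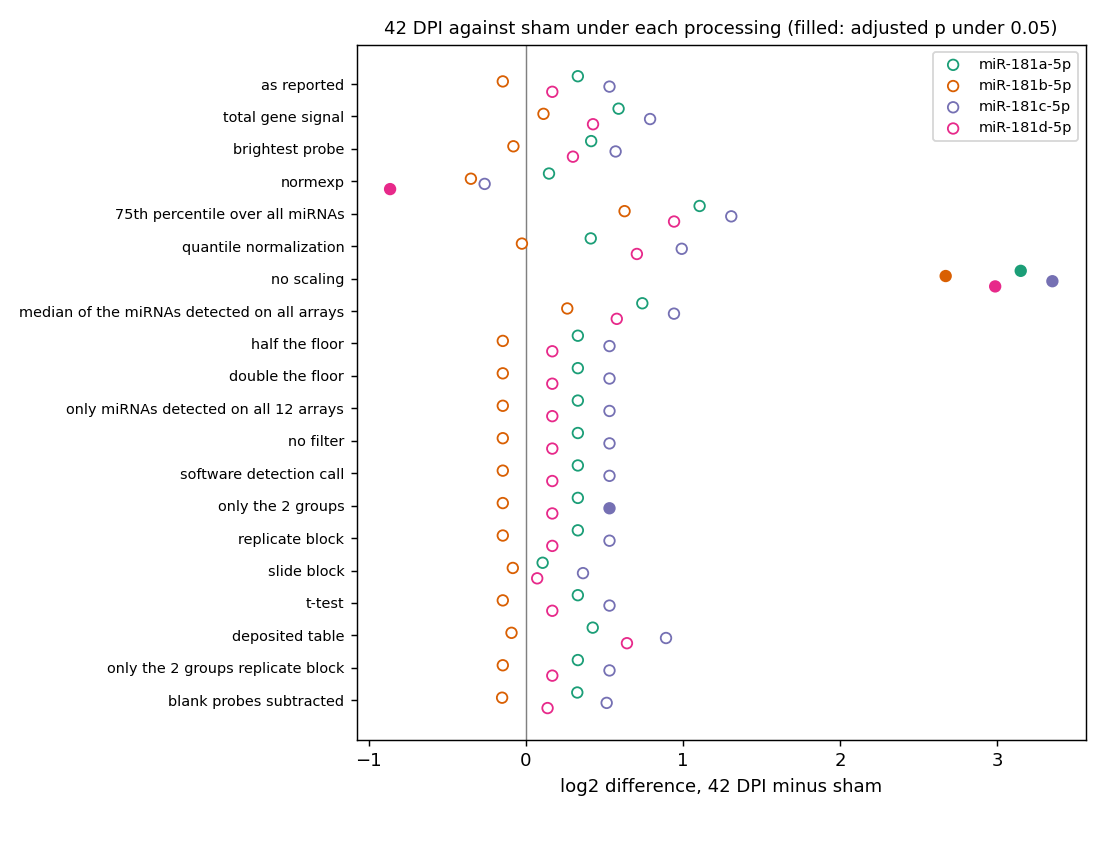
Log2 difference between 42 DPI and sham (horizontal axis) of the 4 miR-181 5p arms under the reported processing and 19 alternatives (vertical axis). Filled points have a limma adjusted p under 0.05. They are all 4 members with no scaling (2.67 to 3.35), miR-181d-5p under normexp (-0.86), and miR-181c-5p in the fit of the 2 groups alone (0.53).

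Of the 6 3p arms cut from the same hairpins, miR-181a-1-3p alone was detected on all arrays of a group. It was not well above background on any sham or 3 DPI array, where its summed intensity was 3.86 to 5.61 and 8.96 to 11.8. It was detected on 2 of 3 arrays at 14 DPI and on 3 of 3 at 42 DPI, where the sum was 57.3 to 129. These sums are not scaled, and the arrays' 75th percentiles were 217 to 348 in sham and 1385 to 2936 at 42 DPI. miR-181a-1-3p entered the test through the 42 DPI arrays alone. The sham side is only a bound that lies above the 42 DPI mean, so neither a p nor a fold is given. miR-181a-2-3p, miR-181b-1-3p, miR-181b-2-3p, miR-181c-3p, and miR-181d-3p were detected on 0 of 12 arrays, with summed intensities between -5.02 and 7.46.

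Of the other 226 miRNAs detected on all arrays, those whose log2 scaled signals followed the members' mean most closely over the 12 arrays were miR-382-5p (Pearson's r = 0.91), miR-103-3p (0.89), miR-130a-3p (0.88), miR-299b-5p (0.87), and miR-369-5p (0.87). The median r over the 226 was 0.36. The choice used all groups, so how these 5 differed from sham is not read as a result.

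The let-7 and miR-98 family, whose members share another seed and are abundant in brain, was set beside miR-181 as a family of close copies. At 42 DPI, 9 of 9 members, with a median of 0.56, were higher than sham in the estimate, as were 191 of the 486 tested miRNAs. In limma's test 2 of 9 rose, against 13.6% of all tested miRNAs called higher and 34.2% called in either direction. The called members were let-7f-5p, which rose by 0.84 ± 0.28 (SE, adjusted p = 0.0486) and miR-98-5p, which rose by 1.38 ± 0.32 (adjusted p = 0.0152). The count was 0 of 9 without sham replicate 1, sham replicate 2, or 42 DPI replicate 1, 2 of 9 without 14 DPI replicate 3, 6 of 9 without 14 DPI replicate 1, and 1 of 9, miR-98-5p, without each other array. At the earlier time points limma called 0 of 9, with 0 and then 1 at an unadjusted p under 0.05. With the slide as a block limma called 0 of 9, and 0 of all tested miRNAs, at 42 DPI, with 0 of 9 at an unadjusted p under 0.05. Whether the families differ was not tested.

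Of 10 miRNAs linked to inflammatory signaling, 8 could be tested and 4 were detected on all 12 arrays, namely miR-21a-5p, miR-125b-5p, miR-132-3p, and let-7i-5p. At 42 DPI 2 of these 4 were called higher, against 14.3% of the 230 miRNAs detected on all arrays. miR-21a-5p, raised in many injured tissues, rose by 0.86 ± 0.29 (SE; limma, adjusted p = 0.0493) and miR-125b-5p by 0.46 ± 0.15 (adjusted p = 0.0446). Both lie close to the threshold. Not called were let-7i-5p, at 0.48 ± 0.27 (limma, adjusted p = 0.195), and miR-132-3p, which was lower, at -0.40 ± 0.43 (adjusted p = 0.501). The count was 0 of 4 without any 1 of sham replicates 1 and 2, 3 DPI replicates 1 and 2, 14 DPI replicate 2, and the 3 arrays of 42 DPI, and it was 3 of 4 without 14 DPI replicate 1. With the floor halved limma called 1 of 4, and with it doubled or with the slide as a block 0 of 4, with 2 and 1 at an unadjusted p under 0.05. With only the 230 miRNAs detected on all arrays in the fit, it called 1 of 4, miR-21a-5p. In that fit 51.3% of the 230 were called in either direction. miR-146a-5p, a feedback inhibitor of NF-κB signaling, and miR-142a-3p, a miRNA of blood cells, were detected on 0 of 3 sham arrays and on 3 of 3 at 42 DPI, so they are not counted.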

How the data were processed

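Microglial exosome RNA of 12 samples was measured on single-color Agilent miRNA arrays. The authors deposited 1 scanner file per array from Agilent Feature Extraction 10.7.1.1, with an intensity per spot, background-corrected by the software and not normalized between arrays. A deposited log2 table, whose scaling and centering are not stated, served as an alternative. The labels describe a cRNA amplification kit, the methods direct cyanine-3 labeling.

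Control and outlier spots were removed, spots averaged, and probes summed. Arrays were divided by their 75th percentile over 230 miRNAs detected on all 12 arrays, floored at -5.06 (log2), and log2 transformed. Detected means more than 0.5 of a probe's spots well above background. The 486 miRNAs detected on all arrays of a group were tested with limma 3.58.1 (R 4.3.3) in 1 fit over 12 arrays, two-sided, with Benjamini-Hochberg adjustment, called at 0.05. Other steps used Python 3.11.15, NumPy 2.4.6, pandas 2.3.3, SciPy 1.17.1, and matplotlib 3.10.9, and the fit was tested on simulated data. Named miRNAs were the members, their 3p arms, the 5 miRNAs most correlated with the members' mean, and the lists. The members and lists were chosen with earlier results of these data known. Shares and list counts over the 230 miRNAs were added after seeing the data. The misplaced miR-124-3p spots were left out of the neuron sum. Number of arrays limits precision.

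Same-numbered arrays deviated together for sham and 14 DPI (r over the 486 miRNAs was 0.83, 0.44, and 0.75) and not for sham with 3 DPI (-0.44, 0.57, and -0.73) or 42 DPI (-0.42, -0.07, and 0.27). That pairing comes from the correlations alone.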

Additional observations from a re-analysis of the deposited data

How the results depend on the processing

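Of the 31 alternatives run for 42 DPI against sham, 28 called 0 of 4 miR-181 members. With no scaling, limma called 4 members at 14 DPI, 4 at 42 DPI, and 4 between 42 and 3 DPI. The shares of all tested miRNAs called there were 65.6%, 84.0%, and 62.3%. Normexp called 1 member in each of the same comparisons, against 76.1%, 88.3%, and 85.2% of all tested miRNAs. The fit limited to 2 groups called 1 member at 42 DPI, against 53.9%. The methods' t-test, run on the same values, called 0 members after Benjamini-Hochberg adjustment, against 43.6% of all tested miRNAs at 42 DPI. At an unadjusted p under 0.05 the t-test counted 1 member at 42 DPI. Leaving out each array in turn called 0 members in each of the 6 comparisons, with changes at 42 DPI between 0.22 and 0.46 for miR-181a-5p, -0.29 and -0.01 for miR-181b-5p, 0.39 and 0.67 for miR-181c-5p, and -0.0085 (without sham replicate 1) and 0.32 for miR-181d-5p.

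The sign of a log2 change against sham turned in 18 of 372 values. Many of the 372 could not turn, because their setting leaves the estimate itself as it was. Such settings are other floors, filters, or tests, the replicate block, and leaving out an array of a group not compared. For miR-181b-5p at 14 DPI it became 0.0546 with the software's total gene signal, 0.12 with the 75th percentile over all miRNAs, 1.55 with no scaling, and 0.0533 with the median of the miRNAs detected on all arrays. At 42 DPI the same 4 gave 0.11, 0.63, 2.67, and 0.26. Under normexp, miR-181c-5p became -0.051, -0.25, and -0.26 and miR-181d-5p -0.24, -0.60, and -0.86 at 3, 14, and 42 DPI. Without single arrays, the changes at 3 and 14 DPI ranged from 0.07 to 0.52 and 0.09 to 0.53 for miR-181a-5p and from 0.06 to 0.54 and 0.16 to 0.60 for miR-181c-5p, while miR-181b-5p ranged from -0.0199 (without 3 DPI replicate 2) to 0.35 at 3 DPI and from -0.32 to 0.0402 (without 14 DPI replicate 1) at 14 DPI, and miR-181d-5p from -0.0642 (without sham replicate 1) to 0.28 at 14 DPI. The change between sham and 42 DPI turned for miR-181a-5p minus miR-181c-5p under normexp (0.41), for miR-181a-5p minus miR-181d-5p under quantile normalization (-0.29) and in the deposited table (-0.22), and for miR-181b-5p minus miR-181d-5p under normexp (0.51). The cause was not tested.

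With the replicate number as a block, 0 members were called in each comparison, and the miR-181c-5p change at 42 DPI stayed 0.53 (adjusted p = 0.171). In the paired fit of 2 groups, chosen after seeing the data like the within-array differences and the subtraction of blank probes, it was 0.53 (adjusted p = 0.138). The block changed no other call of a member. It moved the calls over all miRNAs from 18 to 4 at 14 DPI.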
